A study of Mus musculus with 14 samples.

Results

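The genes described here are 43 members of the ciliary transport and gating machinery, out of 55487 genes in the deposited count table. They were chosen by name and role, not by a measured value: 5 genes of intraflagellar transport complex A (IFT-A), 9 of complex B (IFT-B), 5 of the transport motors, 7 of the BBSome, 12 of the transition zone and 5 ARL GTPases and membrane cargo factors. All 43 were found in the table and all 43 passed the filter on low counts. Bulk RNA-seq libraries had been made from GFP-sorted cells of the mouse ureteric bud, the epithelial outgrowth that gives rise to the collecting ducts of the kidney. The first line has 5 libraries labelled Cep120 KO (replicates 2, 4, 5, 6 and 7, whose titles say homo) and 3 controls whose genotype label is WT and whose titles say het. The second line has 3 libraries labelled Pkd1 KO and 3 controls with the same double labelling. By the design text the GFP used for sorting comes from the Hoxb7-Cre transgene, which is active in the ureteric bud lineage. Sorting in every group was thus aimed at cells of that lineage that carry the transgene. The sorted libraries still held reads of marker genes of other cell types, given below. Cre recombinase deletes DNA between loxP sites, and cells in which the transgene is silent keep their genes. The labels do not describe the Cep120 and Pkd1 alleles further. The protocol gives E13.5 as the stage of wildtype and Hoxb7-Cep120 kidneys, while the stage of the Pkd1 line is labelled only as embryonic. Nothing in the labels says if replicates are different embryos or pools, and the p-values cover library-to-library spread that may be technical only. The study asked which pathways are disrupted when ureteric bud cells lose their centrosomes.

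A primary cilium grows from a basal body, the mother centriole of the centrosome. CEP120 is a protein of the centriole, and PKD1 encodes polycystin-1, a membrane protein that acts in the cilium of kidney tubules and is mutated in polycystic kidney disease. IFT-B trains carry cargo towards the tip of the cilium with the kinesin-2 motor, and IFT-A trains return with the dynein-2 motor. The BBSome is a coat-like adaptor that takes membrane proteins out of the cilium on these trains. The transition zone at the base of the cilium is a gate that controls which proteins enter, and its loss is known for cystic kidneys. ARL3 is a small GTPase that releases lipid-modified cargo inside the cilium. RFX transcription factors are known to drive many genes of cilia through a promoter element called the X-box.

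The promoters of 5 members with matches to the X-box are shown here, because genes of the RFX factors themselves are among the results: the 4 with at most 1 mismatch, and Cc2d2a because it was called in the Cep120 line. The search used the half-sites GTTNCC and GGNAAC with 2 bases between them, on both strands, in the 250 bases before the start of each gene, with up to 2 mismatches of the 10 fixed letters. Promoter sequences and starts are those of RefSeq on GRCm38.p6, and 38 of the 43 members had an entry. Each window holds the site in capitals with up to 30 bases on either side and runs 5′ to 3′ on the strand of the gene. Mks1 (chr11:87853161-87853214, plus strand) and Bbs7 (chr3:36613467-36613540, minus strand) match all fixed letters. Ift57 (chr16:49699177-49699250, plus strand) and Tctn2 (chr5:124598657-124598730, plus strand) have 1 mismatch, and Cc2d2a (chr5:43662322-43662378, plus strand) has 2. The site of Cc2d2a lies before the RefSeq start, but inside the gene by the GENCODE start at 43662346.
Mks1: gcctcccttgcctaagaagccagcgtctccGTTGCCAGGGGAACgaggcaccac
Bbs7: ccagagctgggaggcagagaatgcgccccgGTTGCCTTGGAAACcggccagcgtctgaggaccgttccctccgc
Ift57: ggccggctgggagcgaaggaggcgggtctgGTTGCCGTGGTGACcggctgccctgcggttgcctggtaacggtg
Tctn2: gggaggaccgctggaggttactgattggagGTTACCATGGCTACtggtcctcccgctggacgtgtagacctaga
Cc2d2a: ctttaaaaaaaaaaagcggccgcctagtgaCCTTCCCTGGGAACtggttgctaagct
With up to 2 mismatches, 10 of the 38 member promoters (26.3%) held a match, against 3150 of 26734 promoters of all genes (11.8%). With up to 1 mismatch the counts were 4 of 38 (10.5%) and 546 of 26734 (2.04%). Ift140, Wdr19, Bbs1 and Tctn3 also had a match at 2 mismatches. A match describes these letters and does not show that a factor binds there.

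Total estimated counts ran from 11347657 to 27967596 per library. Among the 5 Cep120 KO libraries, 4 stood apart from all others: their scaling factors by TMM (trimmed mean of M values, which corrects for differing make-up of libraries) were 1.15, 1.15, 1.28 and 1.32 in libraries 4, 5, 6 and 7, against 0.862 to 0.966 in the other 10 libraries. Library 2, which carries the same KO label, had 0.908, so not every library with that label stood apart. Since the 4 libraries that did belong to 1 group, what sets them apart and the genotype cannot be told apart. All 11 ureteric bud markers were detected in every library, with summed levels of 1095, 2149, 2289, 695 and 935 CPM (the reads of a gene relative to the TMM-scaled total of the library) in Cep120 KO libraries 2, 4, 5, 6 and 7 and 1192 to 1310 CPM in their controls. These markers did not move together. In both libraries 6 and 7, Gata3, Ret, Wnt11, Cdh1, Krt8, Emx2 and Cdh16 lay below every Cep120-line control. Pax2 (61.9 and 54.6 CPM) lay above every one of them (11.1 to 15.2 CPM), and Hoxb7, Wnt9b and Lhx1 did neither in both libraries. In both libraries 4 and 5, Gata3, Wnt9b, Cdh1, Krt8, Pax2, Emx2 and Cdh16 lay above every control, and the other markers did not. Nephron progenitor markers, which belong to the neighbouring mesenchyme, summed to 593 and 469 CPM in Cep120 KO libraries 6 and 7, to 28.5 to 33.0 CPM in libraries 2, 4 and 5, and to 47.8 to 63.1 CPM in the controls. Stromal markers summed to 150 and 155 CPM in libraries 6 and 7, to 9.70 to 14.3 CPM in the other 3, and to 9.10 to 65.0 CPM in the controls. Of these 2 lists, Six2, Eya1, Meox1, Crym, Itga8, Foxd1, Meis1, Col1a2 and Col3a1 lay above every Cep120-line control in both libraries 6 and 7. Cited1 (50.8 and 33.2 CPM) and Pdgfra (1.29 and 1.85 CPM) did so in neither, Col1a1 only in library 7 and Tcf21 only in library 6. Multiciliated cell markers, genes of motile rather than primary cilia, summed to 13.1 to 22.2 CPM in Cep120 KO and 9.51 to 14.9 CPM in control libraries. Erythroid and platelet markers summed to 2.36 to 555 CPM in Cep120 KO and 331 to 4957 CPM in controls, and macrophage markers to 2.10 to 7.67 CPM in Cep120 KO and 9.44 to 15.3 CPM in controls. Endothelial markers summed to 0.0656 to 33.4 CPM in Cep120 KO and 2.47 to 6.20 CPM in controls. The part of these other cells in the results was not tested beyond the fits without single libraries and library pairs. In sorted bulk RNA, fewer cells of a type and less RNA per cell cannot be told apart. Libraries 4 and 5 were the most alike pair within any group. They differed by 3.13 times the sampling noise (the median chi-square of their counts over genes). The other Cep120 KO pairs differed by 11.2 to 91.1 times, and the pairs of the other groups by 6.475 to 12.5 times. A value above the sampling noise does not show that libraries 4 and 5 are separate samples. They were counted separately, and a fit with both summed is given below. Cep120 itself had 7.87, 19.5, 21.2, 13.1 and 16.5 CPM in Cep120 KO libraries 2, 4, 5, 6 and 7, against 10.6, 6.41 and 9.45 CPM in controls (log2 fold change 0.83, SE 0.31, edgeR adjusted p = 0.0832). Its level was not lower in KO libraries. No source used here names the deleted exons, and a gene count includes reads outside them, so this count does not check the labels. Pkd1 had 2.68, 2.39 and 2.42 CPM in Pkd1 KO libraries and 4.60, 3.34 and 3.84 CPM in their controls (log2 fold change -0.65, SE 0.43, adjusted p = 1), so the KO libraries lay below all controls without passing the test.

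In the 6 control libraries of both lines, the members spanned a wide range of levels per transcript length. The median member had 5.41 TPM (reads relative to transcript length and to the library total), against 2.38 TPM over 17116 protein-coding genes with a value above 0. Arl3, the GTPase that releases lipidated cargo in the cilium, was the most abundant at 186 ± 10.4 TPM (SD, n = 6 libraries), with no overlap with any other member. B9d1, a B9-domain protein of the transition zone, followed at 106 ± 10.1 TPM. Ift27, a small GTPase of IFT-B that also acts in BBSome traffic, had 95.6 ± 18.9 TPM, and Ift46, a core IFT-B subunit, had 83.7 ± 8.05 TPM. The libraries of B9d1, Ift27 and Ift46 overlapped, so the order of these 3 was not resolved. Within IFT-A, Ift43 was highest at 61.3 ± 7.52 TPM and Wdr19 lowest at 1.12 ± 0.45 TPM. Within IFT-B, Ift172, the largest subunit, was lowest at 1.99 ± 0.43 TPM. Among the motors, the dynein-2 light intermediate chain Dync2li1 was highest at 42.4 ± 4.80 TPM and the kinesin-2 subunit Kif3b lowest at 0.681 ± 0.23 TPM. The BBSome genes lay closer together, with Ttc8 at 11.7 ± 1.92 TPM and Bbs1 at 1.23 ± 0.67 TPM. The lowest member of all was Nphp4, a transition zone protein of the nephronophthisis group, at 0.4005 ± 0.25 TPM. Subunits of 1 complex thus differed in level by far more than the libraries did. Of the members, 10 lay between 31.1 and 186 TPM and the other 33 between 0.4005 and 12.8 TPM, with none between Arl6 at 31.1 TPM and Tmem231 at 12.8 TPM.

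**Figure D1:**
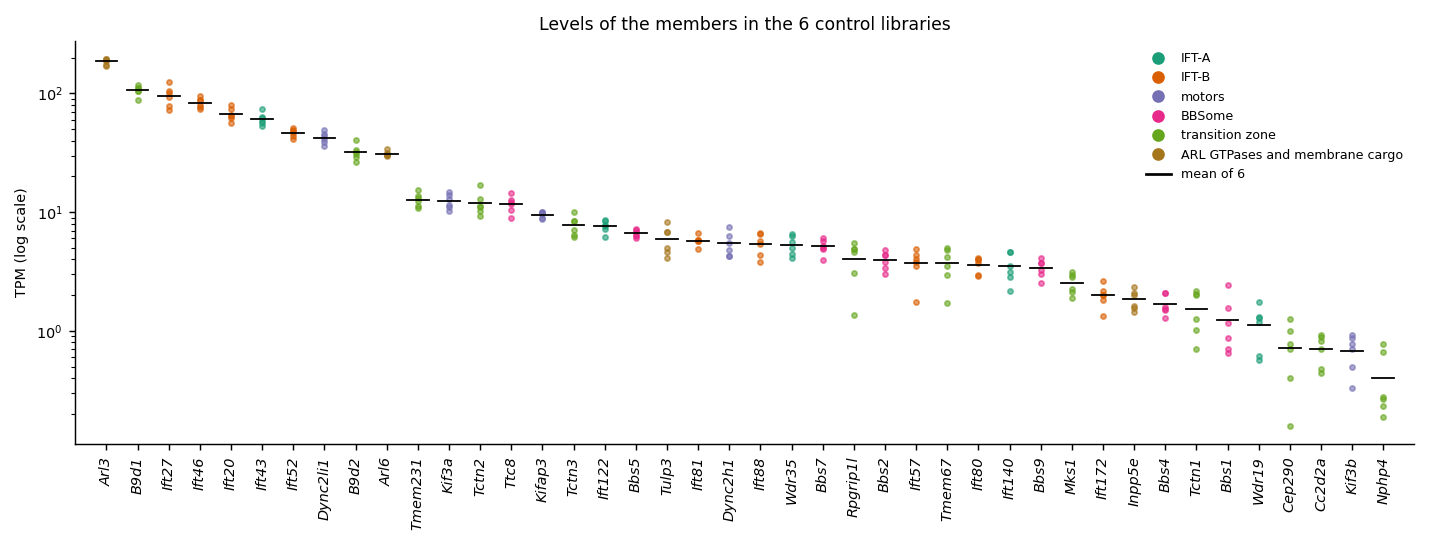
Level of the members in the 6 control libraries, as deposited TPM on a log axis, with members ordered by mean and coloured by sub-complex. Points are single libraries and bars are means; the means run from 186 TPM for Arl3 to 0.4005 TPM for Nphp4, with a gap between Arl6 (31.1 TPM) and Tmem231 (12.8 TPM).

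In Cep120 KO libraries the members moved in both directions, with 8 of 43 higher and 5 of 43 lower than in controls. The higher ones were Bbs4, Cep290, Tctn1, Kif3a, Ift172, Cc2d2a, Inpp5e and Mks1, at 1.77 to 5.46 times the control level. The lower ones were Ift27, B9d1, Dync2li1, Ift52 and Arl3, at 0.580 to 0.704 times. The calls are those of edgeR's quasi-likelihood test at an adjusted p under 0.05, adjusted over all 16876 genes tested. Of all genes, 14.7% were called in this comparison, 8.4% higher and 6.26% lower. The median log2 fold change was 0.34 over the members and 0.12 over all genes, and 29 of 43 members had a positive value. At an unadjusted p under 0.05 there were 24 members, against 33.7% of all genes. The adjusted p of the called members lay between 0.0290 and 0.0441, close to the threshold. Leaving out any single library of the Cep120-line controls left 0 members called, and leaving out Cep120 KO library 2, 4, 5, 6 or 7 left 22, 5, 3, 1 or 0. The calls over all genes moved in step, at 2 to 6 genes without 1 control and at 34%, 9.27%, 7.72%, 1.9% and 0.0485% of genes without KO library 2, 4, 5, 6 and 7. With Cep120 KO libraries 4 and 5 summed, 4 members and 8.32% of all genes were called. Leaving out 1 library of the Pkd1 line left 4 to 7 members called, with 7.28% to 8.05% of all genes. That line enters this comparison through the shared spread, scaling and low-count filter, and 17766 to 17918 genes were then tested. A fit of the Cep120 line alone called 0 members and 0 genes, with 4081 genes at an unadjusted p under 0.05.

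**Figure D2:**
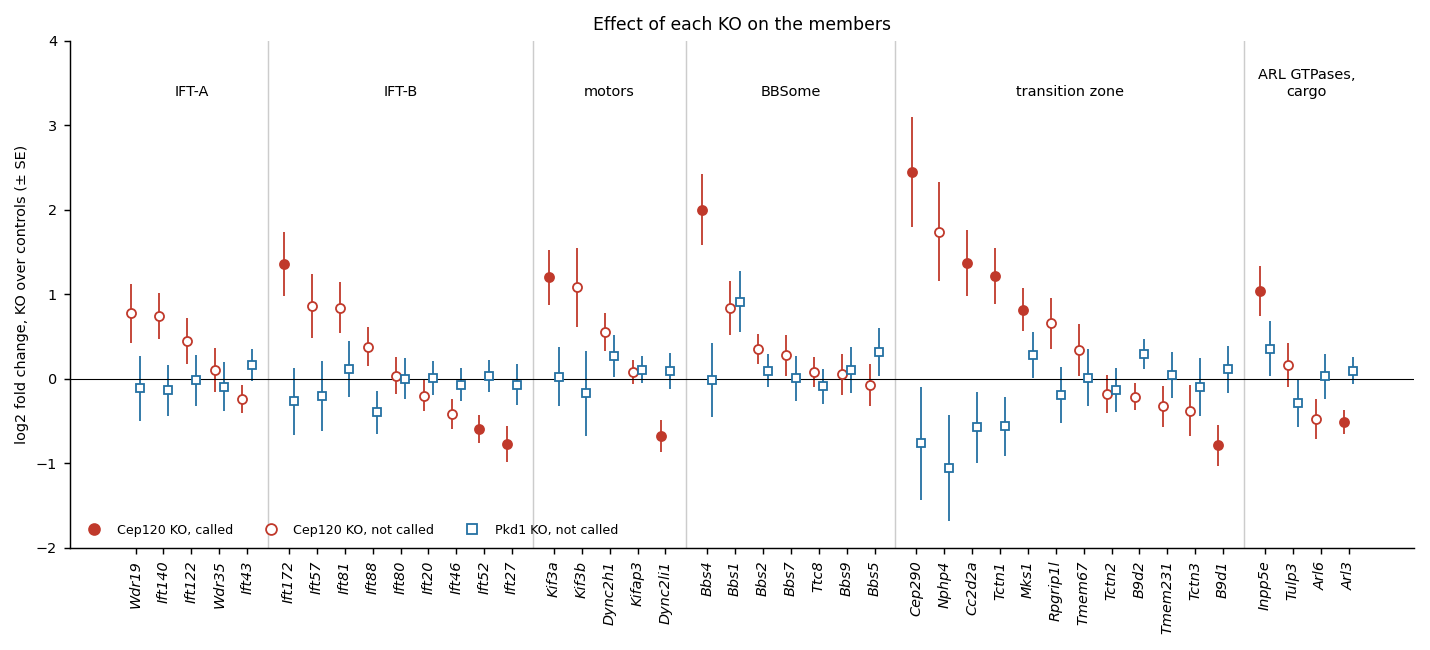
Log2 fold change of the members, KO over controls of the same line, with SE bars from the edgeR fit, grouped by sub-complex. Circles are the Cep120 line (filled where the adjusted p was under 0.05: 8 higher and 5 lower) and squares the Pkd1 line (0 called); on deposited TPM the means of Ift52 and Arl3 were higher in Cep120 KO.

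No IFT-A gene passed the test, against 14.7% of all genes, although 4 of the 5 had positive values and the median log2 fold change was 0.45. No sub-complex was tested against the share of all genes, so the counts by sub-complex are descriptions only. Ift140, the large subunit whose mutations cause ciliopathies with kidney disease (chr17:25016085-25099495, GRCm38, plus strand), had 12.1, 29.8, 29.0, 22.5 and 23.4 CPM in Cep120 KO libraries 2, 4, 5, 6 and 7 and 12.7, 16.5 and 12.6 CPM in controls. Libraries 4 to 7 lay above every control and library 2 lay below them. Its log2 fold change was 0.74 (SE 0.27, adjusted p = 0.0781). Wdr19 had 5.64, 10.5, 12.8, 6.20 and 7.93 CPM in Cep120 KO libraries and 4.64, 7.76 and 2.64 CPM in controls (log2 fold change 0.77, SE 0.35, adjusted p = 0.136). Ift122 had 19.6, 53.6, 57.6, 31.9 and 42.3 CPM in Cep120 KO libraries and 26.1, 32.4 and 31.7 CPM in controls, with a log2 fold change of 0.45 (SE 0.28). Wdr35 had 0.11 (SE 0.26) and the small subunit Ift43 had -0.24 (SE 0.17). In 4 of these 5 genes, Ift122, Ift140, Wdr35 and Wdr19, libraries 4 and 5 were the 2 highest KO libraries. Nephron progenitor and stromal marker sums in libraries 4 and 5 were within or below the range of the controls. What sets these 2 libraries apart, and the part of other cells in these values, was not tested.

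IFT-B was split, with Ift172 higher, Ift27 and Ift52 lower, and the other 6 of 9 genes not called. Of all genes, 8.4% were called higher and 6.26% lower. Ift172, the largest IFT-B subunit (chr5:31253277-31291116, minus strand), had 6.95, 14.6, 18.1, 13.6 and 11.1 CPM in Cep120 KO libraries 2, 4, 5, 6 and 7, against 4.52, 5.46 and 5.09 CPM in controls. Every KO library lay above every control, and the log2 fold change was 1.36 (SE 0.38, adjusted p = 0.0343). Its call held in 5 of the 14 fits that each left out 1 library. Ift27 (chr15:78159463-78174107, minus strand) had 66.5, 53.3, 46.3, 57.8 and 43.02 CPM in Cep120 KO libraries and 97.6, 73.1 and 103 CPM in controls. Every KO library lay below every control, with a log2 fold change of -0.77 (SE 0.21, adjusted p = 0.0344). Ift52, a subunit of the IFT-B core (chr2:163017354-163046141, plus strand), had 93.5, 88.5, 77.7, 57.7 and 60.2 CPM in Cep120 KO libraries and 107, 124 and 110 CPM in controls. Here too all KO libraries lay below the controls, with a log2 fold change of -0.59 (SE 0.17, adjusted p = 0.0359), but on deposited TPM the direction was reversed (48.1 TPM in Cep120 KO and 46.5 TPM in controls). Of 14 single-library omissions, the call of Ift27 held in 5 and that of Ift52 in 2. Ift81, which binds tubulin cargo together with IFT74, had 13.2, 27.6, 28.2, 32.2 and 28.3 CPM in Cep120 KO libraries and 12.5, 17.5 and 13.4 CPM in controls (log2 fold change 0.84, SE 0.30, adjusted p = 0.0698). Ift57 had 13.7 and 14.3 CPM in Cep120 KO libraries 6 and 7, 5.95 to 6.88 CPM in the other 3 KO libraries and 2.88 to 6.87 CPM in controls (log2 fold change 0.86, SE 0.38, adjusted p = 0.125). Ift46 had a log2 fold change of -0.42 (SE 0.18, adjusted p = 0.118), and Ift88, Ift80 and Ift20 had 0.38 (SE 0.23), 0.04 (SE 0.22) and -0.20 (SE 0.18).

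Of the 5 motor genes, the kinesin-2 subunit Kif3a was called higher (8.4% of all genes) and the dynein-2 subunit Dync2li1 lower (6.26% of all genes). Kif3a (chr11:53567379-53601967, plus strand) had 19.6, 54.3, 57.1, 75.7 and 64.3 CPM in Cep120 KO libraries 2, 4, 5, 6 and 7, against 25.3, 25.3 and 20.1 CPM in controls. Libraries 4 to 7 were above every control and library 2 was just below them. The log2 fold change was 1.20 (SE 0.32, adjusted p = 0.0327), and the call held in 8 of 14 single-library omissions. Without libraries 4 to 7 the value was -0.25 (SE 0.24). Dync2li1 (chr17:84626496-84655588, plus strand) had 51.6, 45.5, 44.1, 33.2 and 28.9 CPM in Cep120 KO libraries and 75.3, 63.4 and 56.1 CPM in controls, with no overlap. Its log2 fold change was -0.68 (SE 0.19, adjusted p = 0.0359), and the call held in 2 of 14 omissions. Dync2h1, the dynein-2 heavy chain, had 31.5, 26.8, 26.6, 42.4 and 44.4 CPM in Cep120 KO libraries and 22.9, 26.5 and 20.6 CPM in controls (log2 fold change 0.56, SE 0.22, adjusted p = 0.0990). Its groups were apart by a narrow margin only, with the lowest KO library at 26.64 CPM and the highest control at 26.49 CPM. Its value had the opposite sign to that of Dync2li1, but Dync2h1 did not pass the test. Kif3b, the partner of KIF3A in the same motor, had 1.57, 7.84, 10.96, 8.10 and 8.92 CPM in Cep120 KO libraries and 3.58, 4.85 and 2.15 CPM in controls (log2 fold change 1.08, SE 0.47, adjusted p = 0.121). The accessory subunit gene Kifap3 had a log2 fold change of 0.08 (SE 0.15).

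In the BBSome 1 of 7 genes, Bbs4, was called, against 14.7% of all genes. Bbs4, which encodes a subunit that is also found at the satellites around the centrosome (chr9:59321990-59353508, minus strand), had 5.97, 22.8, 20.5, 24.5 and 23.9 CPM in Cep120 KO libraries 2, 4, 5, 6 and 7, against 6.46, 3.86 and 4.36 CPM in controls. Libraries 4 to 7 lay within a narrow range far above every control, and library 2 lay among the controls. The log2 fold change was 2.001 (SE 0.42, adjusted p = 0.0290), a level 4.003 times that of controls. Its call held in 10 of 14 single-library omissions, without libraries 6 and 7 (1.75, SE 0.43, adjusted p = 0.0421) and without libraries 4 and 5 (1.90, SE 0.48, adjusted p = 0.0366). In the other line Bbs4 had 3.70, 5.05 and 3.25 CPM in Pkd1 KO and 5.12, 4.30 and 2.75 CPM in Pkd1-line controls. Bbs1 had 5.11, 5.07, 5.34, 5.88 and 5.76 CPM in Cep120 KO libraries and 1.64, 4.60 and 2.82 CPM in controls, without overlap (log2 fold change 0.84, SE 0.32, adjusted p = 0.0861). Bbs7, whose promoter is printed above, had 0.28 (SE 0.24). The remaining genes Bbs2, Ttc8, Bbs9 and Bbs5 had log2 fold changes of 0.35, 0.08, 0.05 and -0.07.

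In the transition zone, the sub-complex with the most genes, 4 of 12 were higher and 1 lower, against 8.4% and 6.26% of all genes. Cep290, a large coiled-coil protein that tethers the membrane to the microtubules of this zone (chr10:100487558-100574840, plus strand), had 3.47, 7.73, 7.80, 27.9 and 24.1 CPM in Cep120 KO libraries 2, 4, 5, 6 and 7, against 2.88, 3.78 and 1.10 CPM in controls. These levels rested on 53.3 to 778 reads in Cep120 KO libraries and 17.7 to 91.8 reads in controls. The log2 fold change was 2.45 (SE 0.65, adjusted p = 0.0321), the largest of any member, and libraries 6 and 7, which had the high nephron progenitor and stromal marker sums, were more than 3 times as high as libraries 4 and 5. The part of those cells in the value was not tested, but without libraries 6 and 7 it was 1.28 (SE 0.46, adjusted p = 0.0922) and the call was lost. Tctn1, a tectonic of the gate complex (chr5:122237848-122264460, minus strand), had 3.61, 8.16, 8.74, 7.52 and 8.79 CPM in Cep120 KO libraries and 4.23, 2.30 and 3.01 CPM in controls (log2 fold change 1.22, SE 0.33, adjusted p = 0.0325). Cc2d2a, a gate protein whose promoter is printed above (chr5:43662346-43740972, plus strand), had 3.02, 7.94, 10.9, 12.7 and 10.98 CPM in Cep120 KO libraries and 3.17, 4.64 and 2.76 CPM in controls (log2 fold change 1.37, SE 0.39, adjusted p = 0.0364). In both genes libraries 4 to 7 lay above the controls and library 2 among them. Mks1, a B9-domain protein mutated in Meckel syndrome (chr11:87853215-87863803, plus strand), had 9.44, 10.1, 8.46, 14.7 and 15.9 CPM in Cep120 KO libraries and 5.58, 6.53 and 7.80 CPM in controls. All 5 KO libraries lay above the controls (log2 fold change 0.82, SE 0.25, adjusted p = 0.0435). B9d1, its partner in the B9 complex (chr11:61505144-61512931, plus strand), fell to 67.1, 50.4, 51.9, 31.4 and 28.8 CPM in Cep120 KO libraries, against 83.8, 79.3 and 74.0 CPM in controls (log2 fold change -0.79, SE 0.24, adjusted p = 0.0441). Calls held in 9 of 14 single-library omissions for Cep290, 7 for Tctn1, 2 for Mks1, 1 for Cc2d2a and 1 for B9d1. Nphp4 had 3.28, 3.63, 2.09, 4.94 and 6.85 CPM in Cep120 KO libraries and 1.53, 1.27 and 0.921 CPM in controls, without overlap (log2 fold change 1.74, SE 0.58, adjusted p = 0.0582). B9d2, the third B9-domain gene, had -0.21 (SE 0.16), and Rpgrip1l, a scaffold of the zone, had 0.66 (SE 0.30, adjusted p = 0.143). The membrane proteins Tmem67 and Tmem231 had 0.34 (SE 0.31) and -0.32 (SE 0.24), and the other tectonics Tctn2 and Tctn3 had -0.18 (SE 0.23) and -0.38 (SE 0.30).

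Among the 5 ARL GTPases and cargo factors, Inpp5e was higher (8.4% of all genes) and Arl3 lower (6.26% of all genes). Inpp5e, a phosphoinositide phosphatase that sets the lipid make-up of the ciliary membrane (chr2:26396249-26409203, minus strand), had 7.54, 17.1, 20.1, 19.1 and 15.7 CPM in Cep120 KO libraries 2, 4, 5, 6 and 7, against 7.87, 7.10 and 8.35 CPM in controls. Library 2 lay among the controls and the other 4 above them (log2 fold change 1.04, SE 0.30, adjusted p = 0.0370). Arl3, which releases INPP5E from its carrier in the cilium (chr19:46531096-46573198, minus strand), had 128, 103, 101, 114 and 92.3 CPM in Cep120 KO libraries and 168, 141 and 149 CPM in controls, without overlap. The log2 fold change of Arl3 was -0.51 (SE 0.14, adjusted p = 0.0349), but on deposited TPM its mean was the higher one in Cep120 KO (200 TPM, against 185 TPM in controls). Calls held in 3 of 14 single-library omissions for Inpp5e and in 1 for Arl3. Arl6, which recruits the BBSome to membranes, had 60.5 CPM in Cep120 KO library 2, 25.6 to 31.1 CPM in libraries 4 to 7 and 46.5 to 52.6 CPM in controls (log2 fold change -0.48, SE 0.24, adjusted p = 0.172). Tulp3, which carries receptors into the cilium with IFT-A, had 0.16 (SE 0.26).

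**Figure D3:**
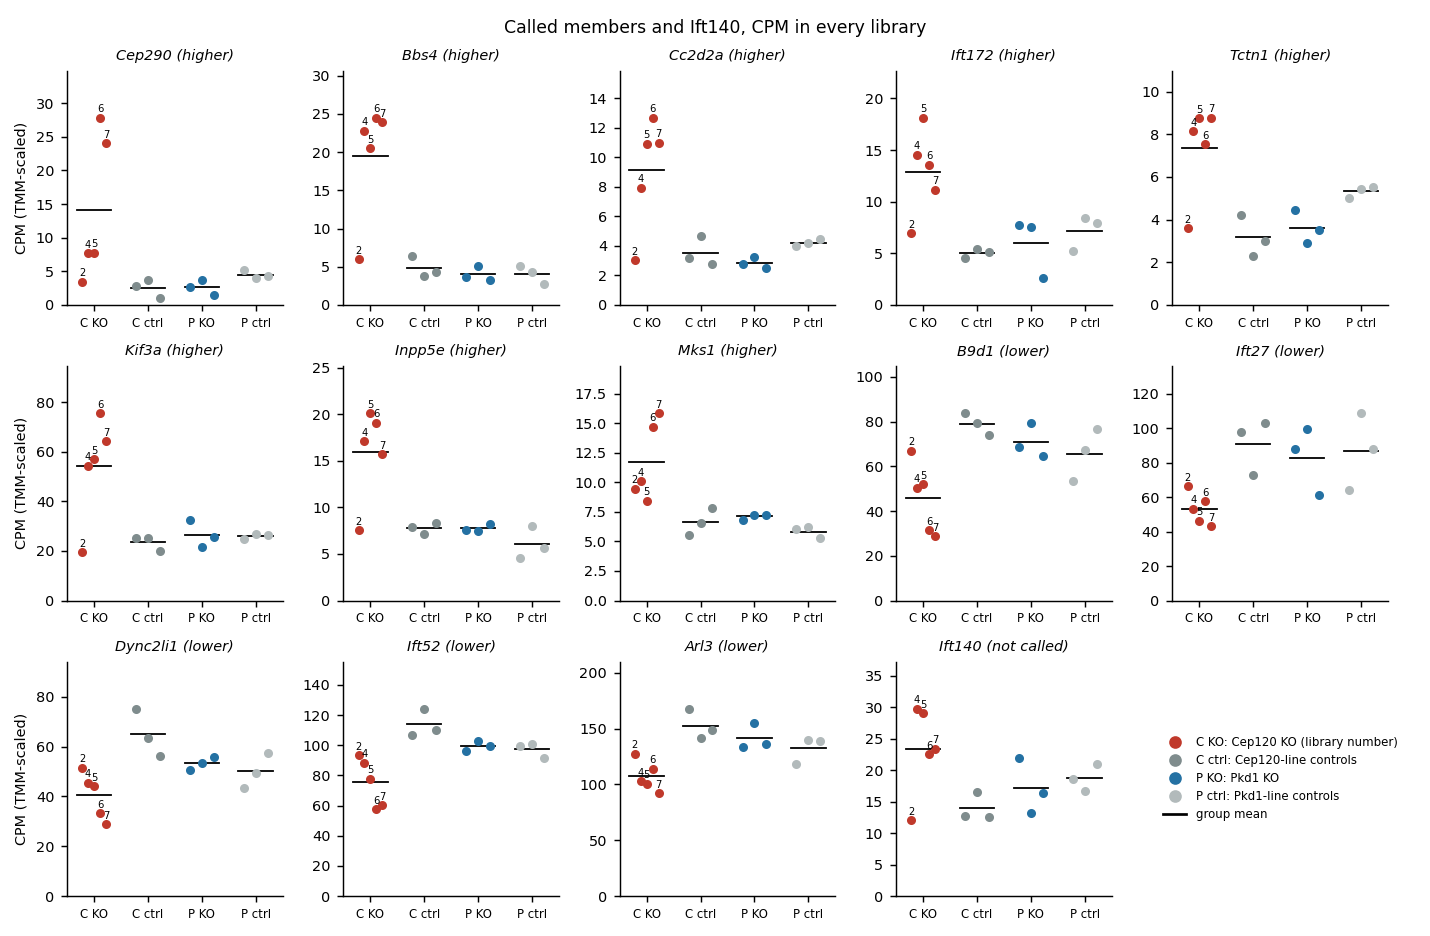
CPM (TMM-scaled) of the 13 called members and Ift140 in all 14 libraries, one panel per gene, with points for libraries, bars for group means and Cep120 KO points numbered by library. In the 8 higher genes libraries 4 to 7 lie above all Cep120-line controls; in the 5 lower genes all 5 KO libraries lie below them, although on deposited TPM the means of Ift52 and Arl3 were higher in Cep120 KO.

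The calls did not come from all KO libraries alike. Each of libraries 4, 5, 6 and 7 lay above every Cep120-line control in 8 of the 8 higher genes. Library 2 did so in 2 of them, Ift172 and Mks1, was below the controls in Kif3a and lay within their range in the other 5. The 5 lower genes were below every control in all 5 KO libraries, library 2 included. Relative to the mean of the controls, the median log2 deviation of the 8 higher genes was 0.27 in library 2 and 1.29, 1.56, 1.55 and 1.47 in libraries 4, 5, 6 and 7. For the 5 lower genes it was -0.28 in library 2 and -0.57, -0.60, -0.95 and -1.07 in the others. Since these genes were chosen as called, the medians describe the libraries and test nothing. Over all 43 members the medians were -0.04, 0.44, 0.33, 0.10 and 0.32 in libraries 2, 4, 5, 6 and 7, and over all genes tested they lay between -0.03 and 0.11. Among the members not overlapping between groups, 6 had every KO library above every control (6.41% of all genes did) and 5 had every KO library below (8.75% of all genes). When library 2 alone stood for the KO group and was assumed to vary like the other groups, 0 members and 5 of 17972 genes (0.0278%) were called, so the count says little about the members. The log2 fold changes were then -0.25 for Kif3a, -0.21 for Cc2d2a and -0.02 for Inpp5e. The pairs 4 and 5 and 6 and 7 also differed from each other: the median deviation of the IFT-A genes was 0.84 and 0.94 in libraries 4 and 5 and 0.09 and 0.50 in libraries 6 and 7. Of the motor genes, the mean CPM of libraries 6 and 7 was 1.62 times that of libraries 4 and 5 for Dync2h1 and 1.26 times for Kif3a, but 0.983 times for Kifap3, 0.905 times for Kif3b and 0.694 times for Dync2li1, so the motors had no common order. The part of the nephron progenitor and stromal cells in these differences was not tested.

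**Figure D4:**
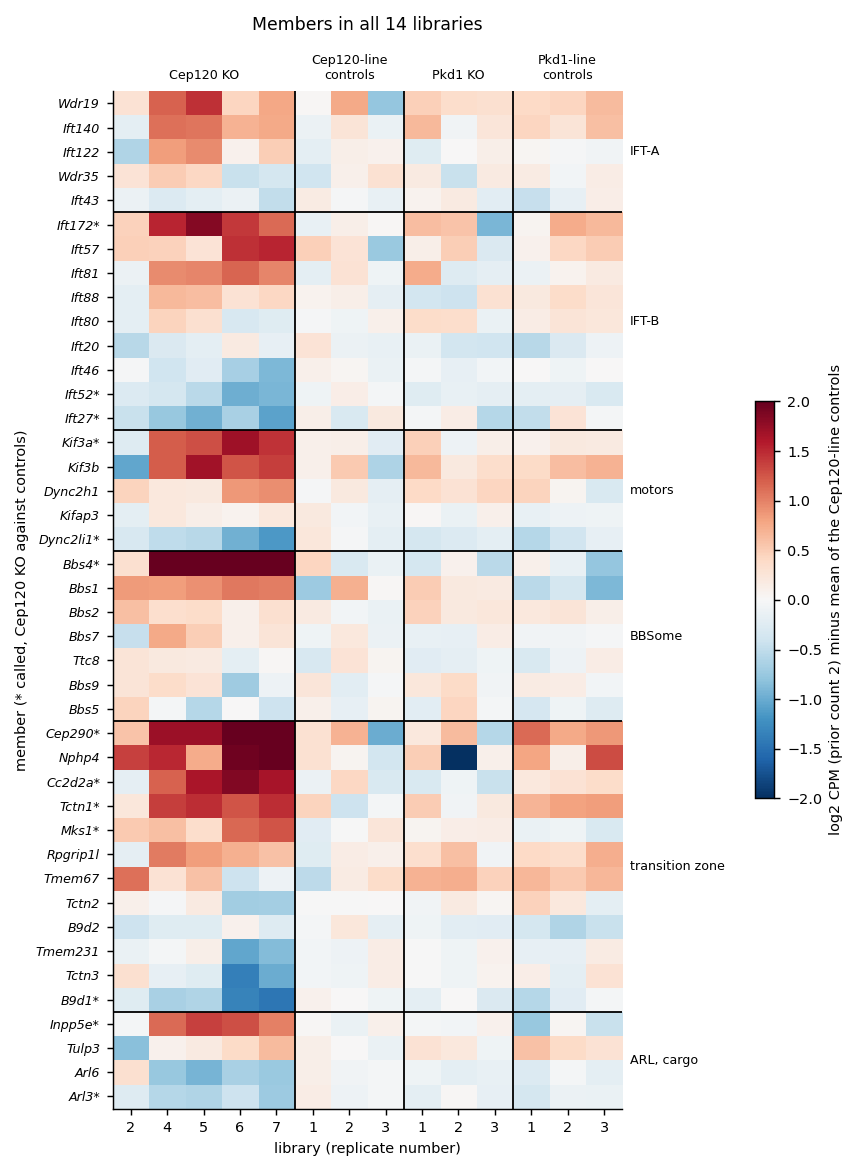
Heat map of the members (rows, by sub-complex; stars mark called members) in all 14 libraries (columns), as log2 CPM with a prior count of 2 minus the mean of the Cep120-line controls, from -2 (blue) to 2 (red). Cep120 KO libraries 4 to 7 hold most of the strong colours, library 2 is closer to the controls, and 0 members were called in the Pkd1 line.

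The direction of the called members went with their level and their length. The 10 most abundant members of the controls (31.1 to 186 TPM) held all 5 lower genes and 0 of the higher ones, and the other 33 held all 8 higher genes and 0 of the lower ones. This cut lies at a gap seen in the same data, and the levels include the Cep120-line controls. The share of all genes called at these levels was not counted, so the split describes these members only. Of those 10, 9 were also among the 14 members with the shortest transcripts, so level and length cannot be told apart in these genes. By the longest annotated transcript, the shortest 14 members (838 to 2687 nucleotides) had 1 gene called higher and 5 lower, with a median log2 fold change of -0.23. The longest 14 (4444 to 14264 nucleotides) had 4 called higher and 0 lower, with a median of 0.81. All genes showed the same tilt: 179 higher and 602 lower of 5933 genes in the shortest range, with a median of -0.13, and 776 higher and 52 lower of 4290 in the longest, with a median of 0.51. Across genes, the correlation of log2 length with log2 fold change was r = 0.63 over the 43 members and r = 0.29 over 16862 genes with a length; genes are not independent replicates, and all share the same libraries. The tilt was present in single libraries, where the median deviation of the longest 14 members was 0.25, 1.14, 1.00, 0.96 and 0.98 in Cep120 KO libraries 2, 4, 5, 6 and 7. In the other 9 libraries it was -0.08 to 0.62. With offsets that remove each library's trend with length and GC content, 1 member, Bbs4, was called (log2 fold change 2.21, SE 0.46, adjusted p = 0.0448), among 291 genes in all. Kif3a (1.28, adjusted p = 0.0584) and Cep290 (2.16, adjusted p = 0.0647) kept values of similar size under these offsets without passing the test. Tctn1 had 0.53, B9d1 -0.12, Dync2li1 -0.05 and Arl3 0.23, so the differences of these 4 were much reduced or turned.

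**Figure D5:**
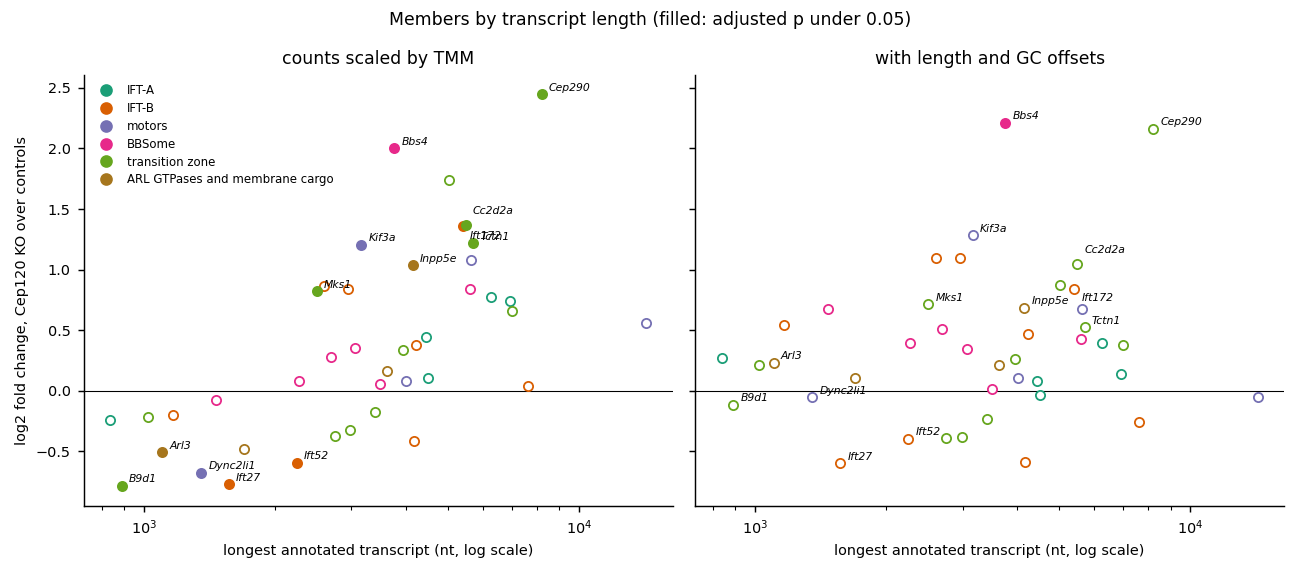
Log2 fold change of the members, Cep120 KO over controls, against the longest annotated transcript in nucleotides on a log axis, coloured by sub-complex and filled where the adjusted p was under 0.05. On counts scaled by TMM (left) the 5 lower genes are short and 7 of the 8 higher ones are not among the shortest 14; with length and GC offsets (right) only Bbs4 is filled and Arl3 lies above 0.

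The scale of measurement mattered as well. On the deposited TPM values, which are not scaled by TMM, mean levels were higher in Cep120 KO for 40 of the 43 members. The median log2 ratio of mean TPM was 0.84 over the members, but it was 0.62 over the 12070 genes with at least 1 TPM in the controls. Of the 5 lower genes, Ift27 had 80.5 TPM in Cep120 KO and 90.1 TPM in controls, B9d1 had 94.2 TPM in Cep120 KO and 109 TPM in controls, and Dync2li1 had 43.4 TPM in Cep120 KO and 44.6 TPM in controls, while Ift52 and Arl3 turned direction. A test on the deposited log2 values, where the median of all genes was 0.45, called 15 members higher and 0 lower. In that test the 5 lower genes had log2 fold changes of -0.12 to -0.47, below 0 and further below the median of all genes.

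No member transcript passed the test, while the main transcripts of the called genes that were tested had values of the same sign as their genes. Of 258 member transcripts in the deposited transcript table, 116 were tested and 0 were called, with 19 at an unadjusted p under 0.05. Over all 34209 transcripts 1 was called (0.00292%) and 6453 had an unadjusted p under 0.05. The transcript Bbs4-201, which held 94.3% of the reads of its gene, had a log2 fold change of 2.01 (SE 0.44, adjusted p = 0.0951). Both main Cep290 transcripts were higher in value, with 2.62 (SE 1.10) for Cep290-210 and 2.31 (SE 0.83) for Cep290-206. The coding transcript Tctn1-201 had 1.72 (SE 0.51) and Tctn1-203, annotated as a target of nonsense-mediated decay, had 1.02 (SE 0.52). The transcript table covered only 2.11% of the reads of Ift52 and 10.2% of those of Ift172, so these genes could not be followed there. Because the library kit does not mark strand, reads of overlapping genes on opposite strands cannot be separated. Tctn1 shares 1574 exonic bases with Hvcn1, a proton channel gene that was itself called higher (log2 fold change 1.29, SE 0.30, adjusted p = 0.0291), so the value of Tctn1 is uncertain. Bbs4 shares 194 exonic bases with Adpgk (log2 fold change 0.59, adjusted p = 0.168), Cep290 shares 881 with 4930430F08Rik (-0.22) and Inpp5e shares 874 with Pmpca (-0.18). None of these 3 neighbours passed the test.

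Other genes of the same machinery were called in both directions too, with more lower than higher. Of 38 pathway genes that are not among the 43, 2 were called higher and 7 lower in Cep120 KO (8.4% and 6.26% of all genes), with a median log2 fold change of -0.04. Ift74, the partner of IFT81, had 13.6, 58.2, 54.1, 59.8 and 60.97 CPM in Cep120 KO libraries 2, 4, 5, 6 and 7 and 23.1, 19.0 and 9.21 CPM in controls (log2 fold change 1.53, SE 0.42, adjusted p = 0.0341). Libraries 4 to 7 lay above every control and library 2 lay among them. Dync2i1, an intermediate chain of dynein-2, had 1.90, 8.16, 9.52, 21.2 and 17.5 CPM in Cep120 KO libraries and 2.29, 3.49 and 1.47 CPM in controls (log2 fold change 2.26, SE 0.62, adjusted p = 0.0334). The lower genes included the IFT-B subunit Hspb11, also known as IFT25 and the partner of IFT27 (-0.97, SE 0.24, adjusted p = 0.0305), the BBSome subunit Bbip1 (-0.99, SE 0.29, adjusted p = 0.0392), the transition zone gene Tmem107 (-1.07, SE 0.31, adjusted p = 0.0376) and the dynein light chain Dynll1 (-0.82, SE 0.24, adjusted p = 0.0370). In all 4 of these genes, which were picked as called, every Cep120 KO library lay below every control. Of the 38 pathway genes, 7 did so (8.75% of all genes) and 3 had every KO library above every control (6.41% of all genes). The other 3 lower genes were Dynlt2b, Lztfl1 and Tmem237.

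A list of 7 transcription factors held Foxj1 and 6 of the RFX family, not all of which are known for cilium genes. Of the 7, 6 were tested and 3, all RFX genes, were called higher, against 8.4% of all genes. Rfx1 had 3.67, 8.80, 9.20, 17.8 and 14.3 CPM in Cep120 KO libraries 2, 4, 5, 6 and 7, against 3.47, 2.14 and 1.29 CPM in controls (log2 fold change 2.23, SE 0.50, adjusted p = 0.0290). Rfx2 had 1.11, 3.73, 3.08, 2.29 and 3.28 CPM in Cep120 KO libraries and 0.470, 0.944 and 0.307 CPM in controls (log2 fold change 2.20, SE 0.54, adjusted p = 0.0305). Rfx5, which is known for MHC class II genes rather than cilia, had 3.87, 4.64, 4.06, 10.3 and 9.81 CPM in Cep120 KO libraries and 1.70, 2.59 and 1.78 CPM in controls (log2 fold change 1.69, SE 0.40, adjusted p = 0.0299). All 5 KO libraries lay above all controls in each of these 3 genes, as in 6.41% of all genes. In controls 1, 2 and 3, Rfx1 rested on 59, 52 and 21 reads and Rfx2 on 8, 23 and 5. The calls of these 3 genes were not followed singly in other settings, and the fit of the Cep120 line alone called 0 genes. Rfx3, which is known for cilium genes, had a log2 fold change of 0.29 (SE 0.25, adjusted p = 0.435), and Rfx7 had 0.53 (SE 0.19, adjusted p = 0.0696). Foxj1, the driver of motile cilia, had 0.262 to 2.79 CPM in Cep120 KO libraries and 0.698 to 1.06 CPM in controls and was not called. An X-box match with up to 2 mismatches was found in 2 of the 8 higher members (Mks1 and Cc2d2a), 0 of the 4 lower members with a promoter entry and 8 of the 26 members not called.

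In the Pkd1 line 0 of 43 members and 0 of 16876 genes were called by edgeR (0%), in either direction. At an unadjusted p under 0.05 there was 1 member, against 259 genes (1.53%). The median log2 fold change was 0.01 over the members and -0.01 over all genes. The member below 0.05 was the BBSome gene Bbs1, with 3.98, 3.19 and 3.18 CPM in Pkd1 KO and 1.88, 2.15 and 1.44 CPM in controls (log2 fold change 0.91, SE 0.36, unadjusted p = 0.0226, adjusted p = 1). The KO libraries lay above the controls without overlap, and Bbs1 also lay without overlap above its controls in Cep120 KO. Mks1 had 6.85, 7.25 and 7.26 CPM in Pkd1 KO and 6.01, 6.18 and 5.33 CPM in controls (log2 fold change 0.29, SE 0.27). Cep290 had 2.68, 3.65 and 1.52 CPM in Pkd1 KO and 5.16, 3.98 and 4.29 CPM in controls, with a log2 fold change of -0.76 (SE 0.67). Tctn1 had 4.44, 2.92 and 3.53 CPM in Pkd1 KO and 5.02, 5.44 and 5.55 CPM in controls (-0.56, SE 0.35), and Cc2d2a had 2.78, 3.23 and 2.49 CPM in Pkd1 KO and 3.99, 4.21 and 4.47 CPM in controls (-0.57, SE 0.42). These 3 transition zone genes, higher in Cep120 KO, thus lay below their controls in every Pkd1 KO library, without passing the test. In all, 3 members (Bbs1, Mks1 and B9d2) had every Pkd1 KO library above every control, against 4.88% of all genes, and 4 (Tctn1, Cc2d2a, Cep290 and Tulp3) had every one below, against 6.19%. By sub-complex the medians lay between -0.11 in the transition zone and 0.10 in the BBSome and the ARL group. None of the 38 other pathway genes or the 6 transcription factors tested was called either.

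The difference between the Cep120 effect and the Pkd1 effect was tested directly, with 0 members and 0 genes called by edgeR (0%). At an unadjusted p under 0.05 there were 14 members, against 20.4% of all genes, and the smallest adjusted p of a member was 0.176. It was shared by 6 members: Cep290, whose difference in log2 fold change was 3.21 (SE 0.92), Nphp4 with 2.80 (SE 0.86), Bbs4 with 2.01 (SE 0.60), Cc2d2a with 1.94 (SE 0.57), Tctn1 with 1.78 (SE 0.48) and Ift172 with 1.62 (SE 0.55). Of these, Bbs4 had almost no change in value in Pkd1 KO (-0.01, SE 0.44). The calls in the Cep120 line and their absence in the Pkd1 line therefore do not show that the lines differ. DESeq2 called 5 members for this difference (5.39% of genes with an adjusted p), limma-voom with quality weights 21 (26% of all genes), and edgeR without Cep120 KO library 2 called 15 (18.7% of all genes).

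Between the controls of the 2 lines no member was called. Of all genes, 21 were called between Cep120-line and Pkd1-line controls (0.124%), 18 higher (0.107%) and 3 lower (0.0178%), and 4.89% had an unadjusted p under 0.05. Of the transcripts, 0.0292% were called between these controls. The member nearest to a call was B9d2, with 31.9, 38.2 and 28.8 CPM in Cep120-line controls and 25.6, 21.6 and 24.1 CPM in Pkd1-line controls (log2 fold change 0.47, unadjusted p = 0.0198, adjusted p = 0.859). The embryonic day of the Pkd1 line is not given in the sources used here, so line and stage cannot be told apart in that comparison.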

How the data were processed

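Messenger RNA of 14 libraries of sorted ureteric bud cells was measured by RNA-seq after full-length amplification with a SMARTer Ultra Low RNA kit, per the labels' protocols. The authors deposited estimated counts (expected counts) per gene and per transcript, not normalized, together with TPM and with log2 values of CPM plus a small constant. DRAGEN and the mm9 build are named in the submitters' processing notes without version or role; no source used here gives the annotation or the treatment of multiply mapped reads. Of 55774 lines in the gene table, 287 repeated an identifier and were dropped. Estimated counts were rounded; 88.4 to 91.6% of values in a library were whole. Counts carry no molecular identifiers, so amplification copies cannot be removed.

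After filterByExpr (minimum count 10) and TMM scaling, all 14 libraries entered edgeR's quasi-likelihood fit (edgeR 4.0.16, R 4.3.3), which had 4 group means and left 10 residual degrees of freedom. P-values were adjusted by Benjamini-Hochberg over 16876 genes, with calls under 0.05. CPM in the text are TMM-scaled; TPM and log2 values are as the authors deposited them, and TPM served for levels between genes. Lengths and GRCm38 coordinates came from GENCODE M21 by Ensembl identifier, and promoters from RefSeq, so they are not of the build named by the submitters. Alternatives were RLE scaling, no filter, a fit per line, DESeq2 1.42.0, limma 3.58.1 (voom with quality weights, and trend on the deposited log2 values), leaving out libraries, summing libraries 4 and 5, offsets for length and GC content, and a replicate block in the Pkd1 line. The fit was tested on simulated data. The members, lists and tests were chosen with earlier results of these data known. All 43 members were tested and counted, but the values of 1 of them are not reported here; full statistics were given for called members and Ift140, and other pathway genes were named by smallest adjusted p. Same-numbered Pkd1 KO and control libraries did not deviate together (correlations -0.05, -0.03 and -0.12), so the numbers were not taken as pairs.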

Additional observations from a re-analysis of the deposited data

Results flagged for a closer look

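In groups of 4 or more libraries, a value was marked where the gap to its nearest neighbour exceeded 0.71 of the range of the group, the critical value of Dixon's test for 5 values. Only the Cep120 KO group has enough libraries, so 43 groups of values were examined, 1 per member, and chance marks about 1 in 20. Marks fell on 4 members, and all 4 were on Cep120 KO library 2. It was the lowest KO library for Bbs4 at 5.97 CPM, for Tctn1 at 3.61 CPM and for Ift81 at 13.2 CPM, and the highest for Arl6 at 60.5 CPM. In Bbs4, Tctn1 and Ift81 the value of library 2 lay within the range of the controls, and in Arl6 it lay above them.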

How the results depend on the processing

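The number of members called in Cep120 KO against controls was 13 and depended on the setting. With the share of all genes called in brackets, it was 13 with RLE scaling (14.6%), 17 with DESeq2 (24.9%) and 15 with limma on the deposited log2 values (18.9%), but 8 without the low-count filter (7.15%), 25 with limma-voom (39.5%), 0 in the fit of the Cep120 line alone (0%), 4 with libraries 4 and 5 summed (8.32%), 6 without both of them (12.4%), 1 without libraries 6 and 7 (6.41%), 0 without libraries 4 to 7 (0.0278%) and 1 with length and GC offsets (1.72%). Leaving out 1 library gave 0 to 22. Over 25 settings Bbs4 was called in 19, Cep290 in 16, Kif3a in 13, Tctn1 in 11, Ift172 in 10, Ift27 in 9, Mks1 and Inpp5e in 8, Ift52 in 7, Dync2li1 and Cc2d2a in 6, B9d1 in 5 and Arl3 in 4. Sign changes were listed for the 13 called members, Ift140 and the gene Cep120 only. Among these, values changed sign without libraries 4 to 7 for Kif3a (-0.25), Ift140 (-0.19), Inpp5e (-0.023), Cc2d2a (-0.21) and Cep120 (-0.14). With offsets Arl3 turned (0.23). Other members also turned in some settings: the lowest value over the 25 settings was -1.15 for Kif3b, -0.83 for Tulp3 and -0.60 for Ift122, and the highest was 0.33 for Arl6. The cause was not tested. For the difference of the effects, signs were followed for the 13 called members. Kif3a (-0.27) and Inpp5e (-0.38) turned without libraries 4 to 7 and Arl3 (0.21) with offsets. Over all members, 5 were called for this difference with DESeq2, 21 with limma-voom and 0 to 15 on leaving out 1 library. In the Pkd1 line, and between the controls, 0 members were called under each of these settings, including 0 to 0 on leaving out 1 library. With the replicate block, fitted to the Pkd1 line alone, 0 members were called as well. No paired analysis was possible for the Cep120 line because its groups share only replicate number 2. X-box matches in members numbered 10 with up to 2 mismatches, 4 with 1 and 26 with 3. Members under 2 TPM, such as Nphp4, Kif3b and Wdr19, had the fewest reads per length and are the least precise.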
